A study of Mus musculus with 6 samples.

Results

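The genes considered here encode the regulators of the oxidative stress response that is built around the transcription factor NRF2. They are Nfe2l2 (NRF2 itself), its relative Nfe2l1 (NRF1), the inhibitor Keap1, the repressor Bach1, the small MAF partners Mafg, Maff and Mafk, and the feedback genes Sqstm1 (p62) and Osgin1. Every probe of the mouse bead array whose annotation carried one of these symbols was taken, which gave 17 probes for 9 of the 19057 genes on the array. A probe was tested if its detection p was under 0.05 on at least 3 of the 6 arrays. That left 12 probes for 8 of the 9 genes, among 9756 genes tested, and the other 5 probes were below background on all 6 arrays.

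The tested cells received 8 µM withaferin A for 6 h (3 arrays), and they were compared with untreated cells (3 arrays). Withaferin A, from the plant Withania somnifera, is a lactone with a steroid skeleton and an electrophilic, thiol-reactive group. Both groups were murine cancer cells carrying the rat her-2/neu oncogene, which codes for a growth factor receptor, in medium with 20% serum. The labels name neither the mouse strain, a promoter for the oncogene nor a clone, they describe the compound as diluted in medium and name no vehicle control, and they do not tie the early passages used to replicate numbers.

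NRF2 is made constantly and destroyed constantly. KEAP1, a cysteine-rich adaptor of the CUL3 ubiquitin ligase, presents it for degradation until electrophiles modify KEAP1, after which NRF2 accumulates as a protein, pairs with a small MAF protein and binds antioxidant response elements (AREs). BACH1 occupies the same elements as a repressor, also paired with a small MAF. NRF1 is made at the endoplasmic reticulum, is cut free when the proteasome falls short and drives proteasome genes. Several regulators of this circuit have themselves been described as NRF2 targets, among them Sqstm1 and Mafg in the mouse and OSGIN1 in human cells. The array measures RNA of the whole culture and no protein, so RNA per cell and the make-up of the culture cannot be told apart.

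The start regions of 4 of the genes are shown because their RNA did different things. Osgin1 and Keap1 were called higher with withaferin A, both Mafg probes read higher without passing the threshold, and Nfe2l2 read slightly lower. Each window runs from 250 bases before to 50 bases after the annotated start, 5′ to 3′ on the gene's strand, as given by RefSeq for GRCm38.p6. For Osgin1 and Mafg the gene table of that build reaches further upstream, by 11265 and 1408 bases, so their windows lie at an internal start, and no window at the outer end was used. Capitals mark a match on either strand to TGACNNNGC, the core of the ARE, or to TGANTCAGC, the form bound by NRF2-type factors with MAF. A site can match both forms.
Osgin1, chr8:119436897-119437196, plus strand: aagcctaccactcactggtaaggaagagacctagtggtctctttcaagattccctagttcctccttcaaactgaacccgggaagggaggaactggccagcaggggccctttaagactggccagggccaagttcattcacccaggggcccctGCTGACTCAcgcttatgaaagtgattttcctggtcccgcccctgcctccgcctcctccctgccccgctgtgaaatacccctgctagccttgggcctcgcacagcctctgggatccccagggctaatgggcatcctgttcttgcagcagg
Keap1, chr9:21239283-21239582, minus strand: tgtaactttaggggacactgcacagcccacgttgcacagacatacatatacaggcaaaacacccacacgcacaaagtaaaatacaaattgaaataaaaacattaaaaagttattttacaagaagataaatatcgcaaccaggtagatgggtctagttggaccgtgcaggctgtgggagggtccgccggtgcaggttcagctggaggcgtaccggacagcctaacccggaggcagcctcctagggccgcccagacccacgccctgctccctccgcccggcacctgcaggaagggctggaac
Mafg, chr11:120633498-120633797, minus strand: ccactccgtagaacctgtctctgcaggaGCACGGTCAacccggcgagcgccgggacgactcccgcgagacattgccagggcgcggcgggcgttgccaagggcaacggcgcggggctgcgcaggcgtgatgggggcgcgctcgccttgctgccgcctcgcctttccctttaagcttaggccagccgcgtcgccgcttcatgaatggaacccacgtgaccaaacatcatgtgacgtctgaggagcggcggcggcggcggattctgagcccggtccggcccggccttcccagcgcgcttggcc
Nfe2l2, chr2:75704614-75704913, minus strand: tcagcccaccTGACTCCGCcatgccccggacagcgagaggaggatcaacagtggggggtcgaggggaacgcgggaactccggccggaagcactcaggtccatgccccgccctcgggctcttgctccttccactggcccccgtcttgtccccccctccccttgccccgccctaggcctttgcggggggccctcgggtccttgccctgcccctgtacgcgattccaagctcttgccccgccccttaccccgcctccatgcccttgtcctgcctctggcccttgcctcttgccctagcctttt

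Windows were found for all 9 genes, 15 in all, since Nfe2l1 has 5 and Maff has 3. Of the 9 genes, 4 held the ARE core. In Nfe2l2 the match lay at -240 from the start, in Mafg at -222 (TGACCGTGC, read on the other strand), in Maff at -112 in 1 of its windows and in Mafk at -13. Osgin1 was the single gene of the 9 with a TGANTCAGC match, at -99 from the start, which reads TGAGTCAGC on the other strand and contains a TGANTCA match, the form bound by AP-1. Keap1, Sqstm1, Bach1 and Nfe2l1 held neither form in these windows. For scale, TGACNNNGC occurs in 12.4% of 32851 windows of this length and in 14% of 27025 genes, TGANTCAGC in 1.19% of windows and TGANTCA in 7.81%. The matches are a description of letters, and the arrays did not measure binding.

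All changes are differences of log2 normalized intensity, withaferin A minus untreated, tested with limma and adjusted over 19077 probes, with calls at an adjusted p under 0.05. Over all genes 666 of 9756 were called (6.83%), 274 higher (2.81%) and 392 lower (4.02%). Without normalization between arrays the split was 160 higher and 1528 lower, and the median change over all tested probes was -0.22 instead of 0.01. Among the tested regulators 2 of 8 were called higher (Osgin1 and Keap1), 0 of 8 lower and 6 of 8 neither, and 4 of 8 had an unadjusted p under 0.05 (Osgin1, Keap1, Mafg and Sqstm1). Counted by probe, 2 of 12 were called, against 5.9% of all tested probes. Counted by gene, the median change of the 8 tested regulators was 0.40, against 0.01 over all tested genes. The groups did not overlap for these same 4 genes, all higher with withaferin A, and overlapped for the other 4. Over all genes, 2999 of 9756 (30.7%) had groups that did not overlap. With 9 members, chosen with earlier results known, these counts describe the genes and carry no test of the group as a whole.

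**Figure D1:**
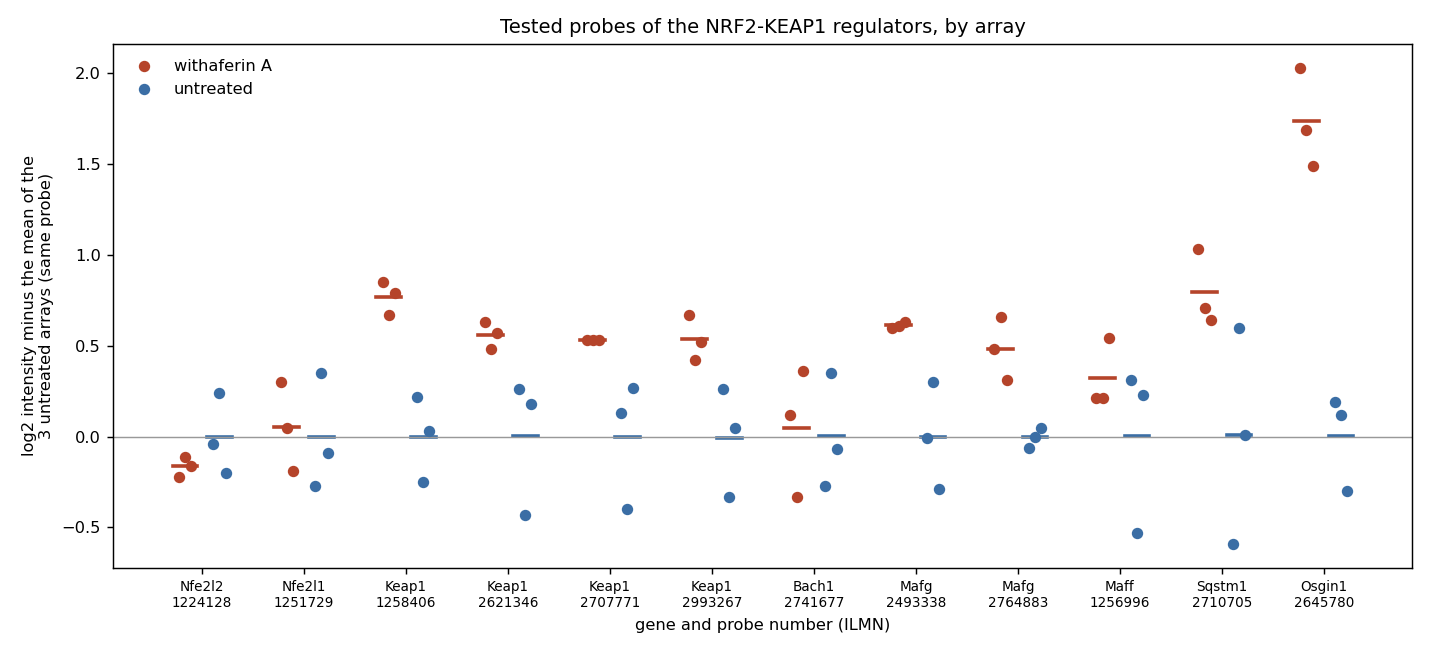
Log2 normalized intensity of the 12 tested probes on each array, minus the mean of the untreated arrays (vertical axis). Each position along the horizontal axis is a probe, with withaferin A arrays on its left in red, untreated arrays on its right in blue and bars at the group means. Osgin1 stands clear of its untreated arrays by 1.30, the 4 Keap1 probes, 2 Mafg probes and Sqstm1 by less, and Nfe2l2, Nfe2l1, Bach1 and Maff overlap.

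Osgin1 encodes an oxidative stress-induced growth inhibitor, and in this set its RNA changed by the widest margin. Its probe (ILMN_2645780) read 9.09, 8.75 and 8.55 in log2 units on withaferin A arrays 1 to 3, against 7.25, 7.18 and 6.76 on untreated arrays 1 to 3. Every withaferin A array was above every untreated one, with a gap of 1.30 between the nearest pair. The means were 8.80 and 7.06, a change of 1.74 (SE 0.20, limma adjusted p = 0.00154) or 3.33-fold, with a 95% interval of 2.44- to 4.54-fold. Only 1.06% of tested genes had a larger absolute change, and Osgin1 ranked 69 of 9756 by rise. The intensities before any correction were 535.7, 466.1 and 391 with withaferin A, against 228.4, 221 and 169.3 untreated. These also did not overlap, and their means differed 2.25-fold. All 16 alternative settings called Osgin1, at changes of 1.40 to 1.96 (2.64- to 3.89-fold).

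Keap1 RNA, which codes for the protein that keeps NRF2 low, was higher with withaferin A. The brightest of its 5 probes (ILMN_1258406) represents the gene and read 10.91, 10.73 and 10.85 on withaferin A arrays, against 10.28, 9.81 and 10.09 on untreated arrays. The treated arrays lay within 0.18 of each other and the nearest untreated array was 0.45 below them. The change was 0.77 (SE 0.17, limma adjusted p = 0.0300), or 1.71-fold with an interval of 1.32- to 2.22-fold. A larger absolute change was seen in 8.16% of tested genes.

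The other Keap1 probes showed smaller differences, and none passed the threshold. ILMN_2621346 read 9.40, 9.25 and 9.34 with withaferin A, against 9.03, 8.34 and 8.95 untreated, a change of 0.56 (SE 0.20, limma adjusted p = 0.126). ILMN_2707771 read 10.21 on all 3 withaferin A arrays, against 9.81, 9.28 and 9.95 untreated, a change of 0.53 (SE 0.19, limma adjusted p = 0.132). ILMN_2993267 read 10.54, 10.29 and 10.39 with withaferin A, against 10.13, 9.54 and 9.92 untreated, a change of 0.54 (SE 0.18, limma adjusted p = 0.112). All 4 tested probes thus showed groups that did not overlap, and in all 4 untreated array 2 was the lowest. Before correction, ILMN_2621346 and ILMN_2993267 did overlap, through untreated array 1 (647.4 and 1337.5, within the range of the withaferin A arrays). The mean of the 4 probes gave a change of 0.60 (SE 0.17, 1.52-fold), with a limma adjusted p of 0.0774. The fifth probe, ILMN_2442976, was below background on all 6 arrays.

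The Keap1 call therefore rests on 1 probe and was less stable than that of Osgin1. It held in 10 of 16 alternatives and was lost in 6. The limma adjusted p was 0.0597 without normalization between arrays (change 0.56) and 0.0642 without the filter on dim probes. It was 0.13 without withaferin A array 1, 0.0672 without withaferin A array 2, 0.0735 without untreated array 2 and 0.0879 without untreated array 3. The size of the change stayed between 0.56 and 0.89 in all 16, positive throughout.

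Sqstm1 encodes p62, an autophagy receptor that binds KEAP1 and carries it to degradation. It had the second largest mean change of the 8 tested genes, and the widest scatter. Its place just above Keap1 (0.77) turned without untreated array 1 (0.49, against 0.89 for Keap1). It also turned without withaferin A array 1 (0.67, against 0.73). The Sqstm1 probe (ILMN_2710705) read 13.61, 13.29 and 13.22 with withaferin A, against 11.99, 13.18 and 12.59 untreated. The treated arrays were alike, whereas untreated array 2 came close to the lowest of them and untreated array 1 lay far below. The change was 0.79 (SE 0.27, 1.73-fold, interval 1.13- to 2.65-fold) and was not called (limma adjusted p = 0.118). Before correction the groups overlapped, at 11335, 10132.1 and 9281.2 with withaferin A, against 4595, 9519.8 and 5963.6 untreated.

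The Sqstm1 result depended on the untreated arrays. Without untreated array 2 the change was 1.09 and was called (limma adjusted p = 0.0405), and without untreated array 1 it was 0.49 (limma adjusted p = 0.25). It was also called in the deposited value table tested in same-numbered pairs (0.79, limma adjusted p = 0.0299) and with array weights (1.10, limma adjusted p = 0.00758). Within same-numbered arrays the differences were 1.63, 0.11 and 0.63. In the deposited value table they were 1.39, 0.30 and 0.68, so the sign was the same in all 3 and the sizes differed widely. Its pooled SD within groups, 0.45, exceeded that of 92.1% of tested genes.

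**Figure D2:**
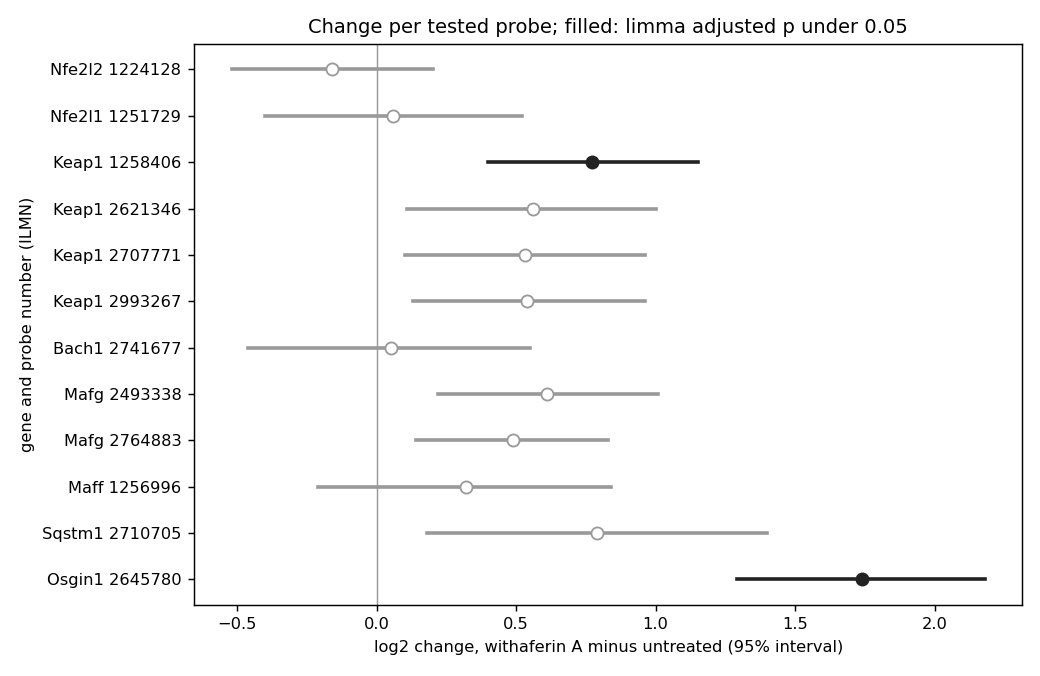
Log2 change (withaferin A minus untreated, horizontal axis) of each tested probe with its 95% interval from limma. Filled points passed an adjusted p under 0.05. Osgin1 at 1.74 and 1 Keap1 probe at 0.77 are filled, and the intervals of Nfe2l2, Nfe2l1, Bach1 and Maff include 0.

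Nfe2l2, the NRF2 gene, read 9.27, 9.38 and 9.33 with withaferin A, against 9.45, 9.73 and 9.29 untreated (ILMN_1224128). The groups overlapped, since untreated array 3 lay within the withaferin A arrays. The means were 9.33 and 9.49, a change of -0.16 (SE 0.16, limma adjusted p = 0.583). The 95% interval ran from 0.695- to 1.15-fold, so that a rise larger than 1.15-fold lies outside it. A larger absolute change was seen in 65.7% of tested genes. The change was negative in all 16 alternatives (-0.41 to -0.04) and called in none. Its -0.41 came without normalization between arrays, where the median of all probes was -0.22, and the next lowest was -0.26, without untreated array 3. Removing untreated array 2, the highest of the 6, gave -0.04. The second probe (ILMN_1214369) was below background on all arrays.

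Nfe2l1, which encodes NRF1, read 11.68, 11.43 and 11.19 with withaferin A, against 11.11, 11.73 and 11.29 untreated (ILMN_1251729). Neither group stood above the other, and the 3 arrays of each group spread over about the same range. The change was 0.06 (SE 0.20, limma adjusted p = 0.902), with an interval of 0.755- to 1.43-fold. Its sign turned when untreated array 1 (-0.08) or withaferin A array 1 (-0.07) was left out, so no direction can be read from it. Without normalization between arrays it was -0.11, where the median of all probes was -0.22.

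Bach1, the repressor, read 9.27, 8.82 and 9.51 with withaferin A, against 8.88, 9.50 and 9.08 untreated (ILMN_2741677). The groups interleaved, with the lowest and the highest of the 6 arrays both treated. The change was 0.05 (SE 0.22, limma adjusted p = 0.928), with an interval of 0.729- to 1.46-fold, and 89.5% of tested genes moved more. Leaving out single arrays gave -0.11 to 0.23, so it too has no direction. Without normalization between arrays it was -0.21, close to the median of all probes under that setting (-0.22). Its second probe (ILMN_1238701) was below background.

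Of the small MAF genes, which code for short DNA-binding partners with no activation domain, Mafg was well detected and read higher with withaferin A on both probes. ILMN_2764883 read 11.37, 11.55 and 11.20 with withaferin A, against 10.83, 10.89 and 10.94 untreated, a change of 0.49 (SE 0.15, 1.40-fold, limma adjusted p = 0.0933). ILMN_2493338 read 10.58, 10.59 and 10.61 with withaferin A, against 9.97, 10.28 and 9.69 untreated, a change of 0.61 (SE 0.18, 1.53-fold, limma adjusted p = 0.0723). The groups did not overlap at either probe, though before correction those of ILMN_2493338 did (1414.7, 1585.8 and 1455.8, against 1194, 1452.6 and 865.7). The mean of both probes changed by 0.55 (SE 0.14, 1.46-fold), with a limma adjusted p of 0.0508. Neither probe was called in the test as reported. Both were called with the deposited value table (limma adjusted p = 0.0104 and 0.00907) and with array weights (0.0174 and 0.0124), and ILMN_2493338 also without untreated array 2 (0.76, limma adjusted p = 0.0476).

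Maff was dim, at 6.24, 6.24 and 6.57 with withaferin A, against 6.34, 5.50 and 6.26 untreated (ILMN_1256996). The groups overlapped and the mean difference came mainly from untreated array 2, without which the change of 0.32 (SE 0.23, limma adjusted p = 0.440) was 0.05. Its second probe (ILMN_2629354) was below background on all arrays. Mafk was not tested, because its probe (ILMN_2683831) was below background on all 6 arrays, at 4.47, 4.97 and 4.62 with withaferin A and 4.36, 4.46 and 4.40 untreated. These readings are bounds on its level, and no fold is given.

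The scatter within groups differed among the regulators and did not follow the size of the change. At each gene's representing probe, the pooled SD within groups was 0.13 for Mafg, 0.16 for Nfe2l2 and 0.18 for Keap1, below the median of 0.22 over tested genes. It was 0.27 for Osgin1, 0.29 for Nfe2l1, 0.33 for Bach1, 0.35 for Maff and 0.45 for Sqstm1. The other tested Keap1 probes had SDs of 0.30 to 0.37 untreated (against 0.24) and 0 to 0.13 with withaferin A (against 0.09). For the other Mafg probe they were 0.29 untreated (against 0.05) and 0.02 with withaferin A (against 0.17). Of the 12 tested probes, untreated array 2 was the highest untreated array at 5 and the lowest at 5. Over all tested probes it was highest at 35.8% and lowest at 33.4%. It was high for Sqstm1, Nfe2l2, Nfe2l1, Bach1 and 1 Mafg probe, and low for the 4 Keap1 probes and Maff, and its part in the scatter was not tested further than by leaving it out.

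For Nfe2l2 and Sqstm1, the other genes with the most similar values were found by the root mean square difference of centred log2 values over the 6 arrays. Closest to Nfe2l2 were Cyba, a subunit of the NADPH oxidase (0.0335), Traf2, an adaptor of TNF receptors (0.0346), and the ribosomal gene Rps10 (0.0413). The median over 9484 genes was 0.284, and since Nfe2l2 hardly moved, likeness here means little movement with untreated array 2 highest. Closest to Sqstm1 were Ppp1r15a (0.199), Nupr1 (0.22) and Gipc2 (0.224), against a median of 0.581. Ppp1r15a (GADD34) and Nupr1 are stress-induced genes. Their changes were 0.58 for Ppp1r15a (limma adjusted p = 0.224), 0.64 for Nupr1 (adjusted p = 0.142) and 1.09 for Gipc2 (adjusted p = 0.0184), and only Gipc2 was called. Its call was lost in 4 of 16 alternatives, without the filter on dim probes (adjusted p = 0.0842), untreated array 1 (0.0547), untreated array 3 (0.0816) or withaferin A array 1 (0.086), while Ppp1r15a and Nupr1 were each called in 3 of 16.

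**Figure D3:**
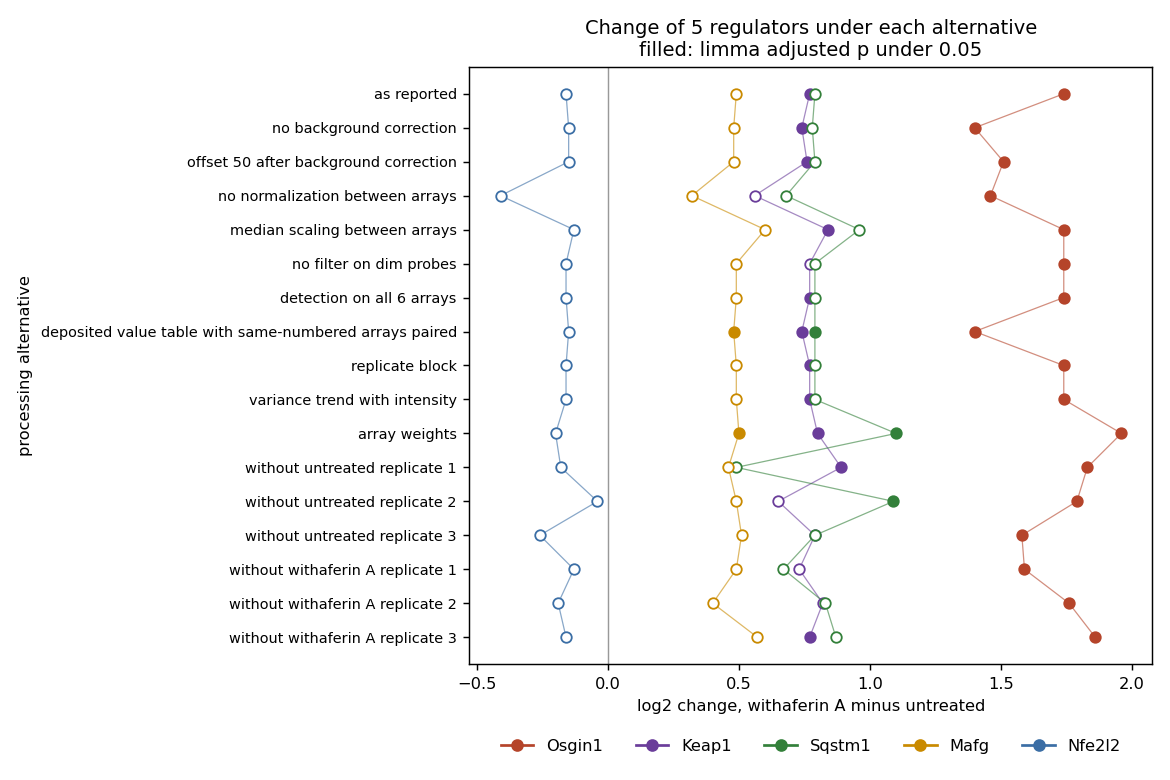
Log2 change (withaferin A minus untreated, horizontal axis) of Osgin1, Keap1, Sqstm1, Mafg and Nfe2l2, each at its representing probe, as reported and under 16 alternative settings (rows), filled where the limma adjusted p was under 0.05. Osgin1 is filled in every row (1.40 to 1.96), Keap1 in part, Sqstm1 in 3 of the 16 alternatives and Nfe2l2 in none.

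The genes that NRF2 is known to activate moved much further than its regulators. Of 30 textbook targets, 27 were on the array and 24 were tested. Of these, 19 were called higher (against 2.81% of all tested genes), 0 lower and 5 neither. Their median change was 1.99, against 0.01 over all tested genes, and the count was 15 to 23 higher and 0 lower over the alternatives. Like the members, this list was chosen with earlier results of these data known. Its counts therefore describe these genes and carry no test of the list as a whole. The largest changes were in Gsta4, a glutathione S-transferase for lipid aldehydes (5.17, 36.0-fold, limma adjusted p = 1.62e-05), Hmox1, which breaks down haem (4.33, 20.1-fold, adjusted p = 9.76e-06), and Srxn1, which repairs peroxiredoxins (3.90, 14.9-fold, adjusted p = 7.16e-06). Hmox1 was above background on 1 of 3 untreated arrays, so the size of its change depends on the background correction. It ranged from 3.00 to 4.57 (8- to 23.8-fold) over the alternatives that tested it. Its place above Srxn1 turned without background correction (3.00, against 3.75 for Srxn1) and with an offset of 50 (3.34, against 3.80). It also turned in the deposited value table (3.00, against 3.74). Osgin1 at 1.74 lies near the median of these targets, and Keap1, Sqstm1 and Mafg lie below it.

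Of the machinery that destroys NRF2, short lists without Keap1 gave 0 and 1 calls, where 6.83% of all tested genes were called. Keap1 itself was called higher and is counted among the regulators. Of the other genes around the KEAP1-CUL3 ligase, among them its neddylation enzymes, 8 of 9 were tested and 0 were called in either direction. Their median change was 0.11. The smallest p there was that of Pgam5, a mitochondrial phosphatase that binds KEAP1 (0.67, limma adjusted p = 0.0892). With an unadjusted p under 0.05, 1 of these 8 would pass, and 0 to 1 were called over the alternatives. Of 10 tested genes of other degradation routes, among them those of GSK3 and beta-TrCP, 0 were called higher and 1 lower. It was Trim21, a ubiquitin ligase that modifies p62 (-1.09, 2.12-fold lower, adjusted p = 0.0476). A second Trim21 probe changed by -0.56, and the call was lost in 9 of the 16 alternatives.

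For the next lists too, the share called over all tested genes was 6.83%. Among 10 tested genes whose products bind KEAP1 or NRF2, 1 was called higher and 0 lower, with a median of -0.04. This was Cdkn1a, the cell cycle inhibitor p21, which shields NRF2 from KEAP1. It rose by 1.87 (3.66-fold, limma adjusted p = 0.00611), and its other probes read higher by 1.70 and 1.47. The call was lost in 1 of 16 alternatives, without the filter on dim probes (adjusted p = 0.0676). Of 8 nuclear cofactors, 0 were called (median 0.10, with 2 at an unadjusted p under 0.05), the smallest p being that of the Mediator subunit Med16 (-0.70, adjusted p = 0.0596, called in 4 of 16 alternatives). Of the other CNC and large MAF factors, 5 of the 6 on the array were below background, and Nfe2l3 was not called (-0.84, adjusted p = 0.0561, second probe -0.71), though 5 of 16 alternatives called it lower, among them the replicate block (adjusted p = 0.0195). Of 10 tested autophagy receptors and ATG8 genes, 0 were called (median -0.11, with 1 at an unadjusted p under 0.05), the smallest p being that of Gabarapl1 (0.90, adjusted p = 0.0561, called in 3 of 16 alternatives). Of 6 tested genes of BACH1 turnover and haem metabolism, 1 was called, Hmox1, with a list median of 0.15.

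On the NRF1 side, 8 genes that process NRF1 were tested, with a median change of 0.35, and 7 read higher and 1 lower with withaferin A. Of these 8, 2 were called higher and 0 lower, against 2.81% and 4.02% of all tested genes. The 2 called were Vcp, the ATPase that extracts NRF1 from the membrane (0.63, 1.55-fold, limma adjusted p = 0.0393), and its cofactor Nploc4 (0.74, 1.67-fold, adjusted p = 0.0398). The Vcp call was lost in 6 of 16 alternatives and the Nploc4 call in 7. The count was 0 to 3 over the alternatives, and 0 in 5 of the 6 fits that left out 1 array. Of 21 tested proteasome subunit genes, 19 read higher with withaferin A, at a median of 0.29, but only Psmd11, a lid subunit, was called (1.00, 1.99-fold, adjusted p = 0.0170, second probe 1.09). That is 1 of 21, against 6.83% of all tested genes. With the deposited value table, tested in pairs, 10 of the proteasome genes were called higher. That setting called 2687 of 9756 genes, 1218 of them higher. The Psmd11 call was lost without the filter on dim probes (adjusted p = 0.0653), without withaferin A array 1 (0.0626) and without withaferin A array 2 (0.0609).

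**Figure D4:**
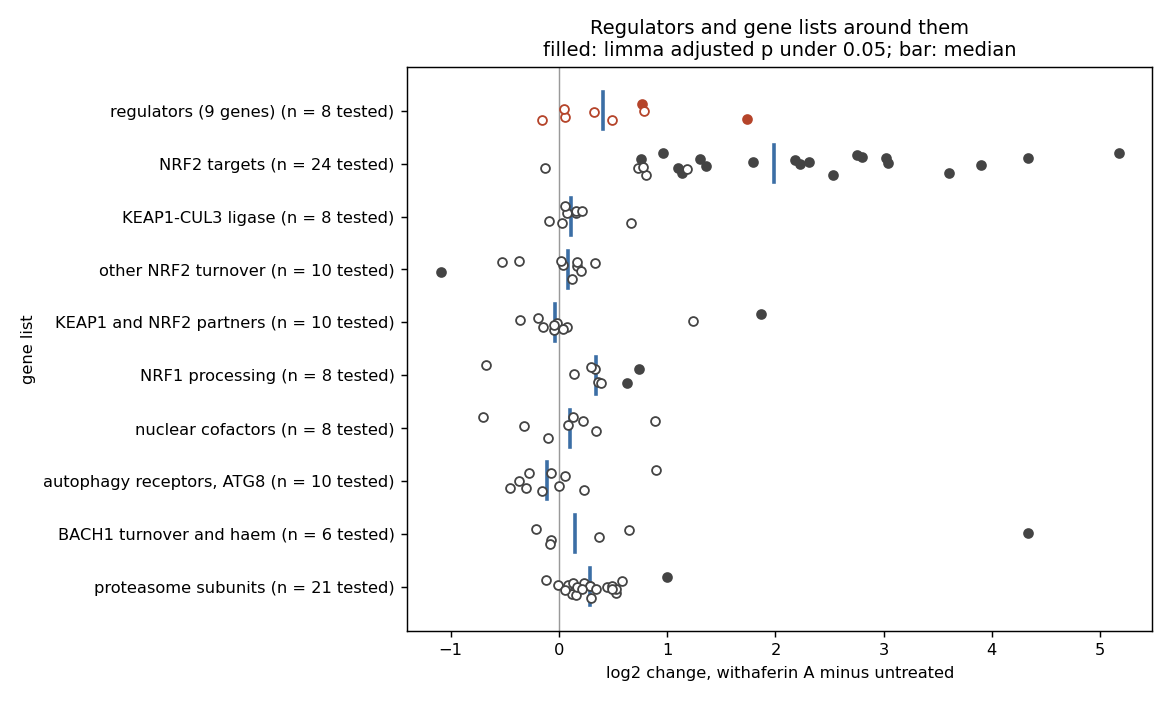
Log2 change (withaferin A minus untreated, horizontal axis) of every tested gene of the regulators and 9 gene lists (rows), filled where called, with a blue bar at each list's median. The NRF2 target row reaches 5.17 with a median of 1.99, while the regulators have a median of 0.40.

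The arrays showed 18275 to 20104 of 45281 probes above background, and correlated across probes at 0.975 to 0.99 within groups and 0.95 to 0.976 between them. Before normalization, the median intensity of the tested probes was 191.8 to 202 with withaferin A, against 218.5 to 235.9 untreated. Of 7 epithelial markers 6 were tested and 0 called, while Epcam was below background. Their median change was -0.26, and 5 of the 6 read lower with withaferin A. The smallest p was that of Krt18 (11.47 with withaferin A, against 12.17 untreated, -0.70, limma adjusted p = 0.0674), which was called lower in 5 of 16 alternatives. Krt8, chosen after its values were seen, stood at 13.23 with withaferin A and 13.37 untreated. Krt19, also chosen after its values were seen, varied widely within both groups (SD 1.95 with withaferin A and 1.63 untreated). It read 6.25, 4.83 and 8.68 with withaferin A, against 6.14, 4.65 and 7.91 untreated, above background on 2 of 3 arrays per group. In both groups array 2 was the lowest and array 3 the highest. None of the 4 leukocyte markers on the array was detected on any array, and 0 endothelial or adipocyte markers were tested. Of 5 stromal markers 1 was tested, Pdgfra, and it was called lower (10.63 with withaferin A, against 11.73 untreated, -1.10, limma adjusted p = 0.0327), while its second probe changed by 0.02. The Pdgfra call was lost in 5 of 16 alternatives, without the filter on dim probes (adjusted p = 0.135) and without untreated array 2, untreated array 3, withaferin A array 1 or withaferin A array 2 (0.0897 to 0.121). The part of this marker in the changes of the regulators was not tested. The Erbb2 probe, which may not separate the rat transgene from the mouse gene, read 7.22 with withaferin A, against 6.78 untreated (0.44, limma adjusted p = 0.128, called in 2 of 16 alternatives).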

How the data were processed

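Biotin-labelled total RNA from withaferin A-treated and untreated cells was hybridised to an Illumina mouse bead array, with 3 arrays per group. The deposited intensity values differ in median between arrays and hold no negative entries, so they were taken as raw, without normalization or background subtraction. Each deposited intensity has a detection score beside it, headed as a detection p, but since bright probes have high scores, it was taken to be 1 minus the p. The deposited value table holds, judging by the values, log2 intensities that were centred inside each same-numbered pair. Its column medians were 0.000566, 0.00265 and 0.00108 for withaferin A arrays 1 to 3, with the same sizes below 0 for the untreated arrays. Its pair differences correlated with those used here at 0.963, 0.966 and 0.961, so scale and direction are known. How it was normalized is unknown, and the sources used here do not give the software behind either table.

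The nec function (limma 3.58.1, R 4.3.3) applied normexp background correction, with negative controls inferred from detection p and an offset of 16. Quantile normalization between arrays and log2 followed. Groups were compared by lmFit and eBayes, two-sided, with Benjamini-Hochberg adjustment over 19077 tested probes and a threshold of 0.05. The tested probe of highest mean stood for its gene. Of the 45281 probes, 34885 had 1 symbol, 18 had several and 10378 were not listed. A GRCm38.p6 gene table held 34807 of the gene IDs and changed 0 symbols. The members and lists were chosen with earlier results of these data known. Named were the members, up to 3 called genes with the largest change per list (in a list without calls, the gene of smallest p) and the 3 genes most like Nfe2l2 and Sqstm1. Other genes named in a marker or probe check are said to be such. Beyond the passages, nothing in the labels says that cultures were separate. The p-values therefore cover only the spread among these arrays, which may be technical, and the number of arrays limits precision. Alternatives covered background correction, normalization, the value table, the dim-probe filter, a block for replicate number, a variance trend, weights for arrays, the mean over probes and the removal of single arrays.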

Additional observations from a re-analysis of the deposited data

How the results depend on the processing

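As reported, 2 regulator genes and 666 of all genes were called. Without normalization between arrays the counts were 1 and 1688, without the filter on dim probes 1 and 337, with the deposited value table in pairs 4 and 2687, and with array weights, whose estimation stopped before it converged, 4 and 2150. The mean over a gene's probes called 1 regulator. Leaving out 1 array gave 1 to 2 regulators and 238 to 886 genes. The regulators called were higher with withaferin A in all of these. Without normalization between arrays all genes shifted (median -0.22), and with them Nfe2l1 (-0.11) and Bach1 (-0.21) turned sign. Leaving out 1 array gave -0.08 to 0.23 for Nfe2l1, -0.11 to 0.23 for Bach1 and -0.21 to 0.02 for Cyba. Rps10 turned to 0.02 under median scaling. The cause of these shifts was not tested.

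Groups share replicate numbers, but the labels state no pairing of samples, so the fit as reported has no block. The deviations of same-numbered arrays from their group means correlated at 0.267, -0.039 and 0.318. Those of differently numbered arrays correlated at -0.391 to 0.267. These values do not settle whether the numbers mark pairs, and the deposited value table was centred within them. With the replicate number as a block, 2 regulators and 1023 genes (400 higher and 623 lower) were called. Slide as a block was not run, since the files used here name none. Signal over background limits Mafk, Maff and 1 probe each of Nfe2l2, Keap1 and Bach1.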
